A study of Homo sapiens with 12 samples.

Results

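The 10 genes described here encode parts of the insulin-like growth factor (IGF) system: the ligand IGF2, the binding proteins IGFBP2 to IGFBP7, and the receptors IGF1R, IGF2R and INSR. They were taken as the rows whose gene name equals one of these symbols in the count files of SKOV3 and SKOV3/DDP ovarian cancer cells. All 10 were found among 46350 named genes, once in each of the 12 libraries.

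IGF1 and IGF2 are secreted peptides that signal through the tyrosine kinase receptor IGF1R and, for IGF2, also through the insulin receptor INSR, which both feed the PI3K and AKT pathway. IGF2R carries no kinase and takes IGF2 to lysosomes. The IGFBPs are secreted proteins that hold the ligands away from their receptors or deliver them, and proteases such as PAPPA free the ligand by cutting IGFBP4 and IGFBP5. IGFBP6 prefers IGF2, and IGFBP7 binds the ligands weakly and insulin more strongly. In ovarian cancer the system is known as an autocrine growth signal.

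The 4 groups had 3 libraries each: untreated SKOV3, SKOV3 with paeonol (PAE, a phenol from the root bark of the tree peony), untreated SKOV3/DDP and SKOV3/DDP with PAE. The labels call SKOV3 a cisplatin-sensitive line and SKOV3/DDP a cisplatin-resistant one, and give no PAE dose or time and no allele or transgene. They do not say whether the triplicates were separate cultures, so p-values measure the spread between these libraries, which may be technical. Poly-A RNA was sequenced, and total counts were between 14610008 and 18263479 per library, so a count of 0 over a group's 3 libraries allows up to 0.0537 to 0.0862 CPM (counts scaled to library size, here with TMM factors) in the SKOV3 groups and 0.0501 to 0.0606 in the SKOV3/DDP groups. Intervals and limits of this kind cover counting error only.

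The labels were checked against marker genes, and libraries are called here by their labels. SKOV3 is known to lack CDKN2A, yet CDKN2A had a mean of 1545 CPM in libraries labelled SKOV3 and 195 CPM with PAE. The libraries labelled SKOV3/DDP held almost no CDKN2A (means of 0.06 and 0.05 CPM). Of 6 intestinal marker genes, 5 were over 1 CPM in both SKOV3/DDP groups, with a summed level of 532 to 576 CPM untreated and 163 to 249 CPM with PAE, and none was over 1 CPM in the SKOV3 groups (0.158 to 0.887 CPM summed). The intestinal factor CDX2 was at 0 in untreated SKOV3. Epithelial markers were present in all libraries (676 to 12864 CPM summed over 5 genes). Of 7 ovarian and Müllerian markers 3 were over 1 CPM in each group, and SOX17 was at 0 throughout. The 3 were PAX8, MSLN and MUC16 in the SKOV3 groups and PAX8, MSLN and FOLR1 in the SKOV3/DDP groups. In the order of groups given, means were 0.118, 0.108, 36.0 and 20.8 CPM for FOLR1 and 2.09, 7.41, 0.390 and 0.446 CPM for MUC16. PAX8 had means of 29.7, 13.2, 4.13 and 2.45 CPM, and MSLN 149, 43.6, 388 and 297 CPM. ERBB2, amplified in SKOV3, had means of 306, 66.8, 96.5 and 32.2 CPM over the groups in the order given. Fibroblast markers summed to 0.330 to 17.2 CPM with COL1A2 at 0 in every library, and of the leukocyte markers PTPRC had at most 2 counts in a group and CD68 16.4 to 104 CPM. Whether the 2 labelled lines share 1 origin was not tested, so a difference between them cannot be told apart from a difference between unrelated cells. In bulk RNA, fewer cells that express a gene and less of its RNA in each cell cannot be told apart either.

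The 3 untreated SKOV3 libraries stood apart from the other 9. Their genes deviated from the mean of all libraries with GC content (Spearman 0.664 to 0.670 over 15090 genes, against -0.533 to -0.326 in the others), and their TMM factors were 0.644 to 0.674 against 0.975 to 1.23. They also had fewer genes with a count, 17951 to 18240 against 21469 to 23194. Mitochondrial genes took 1.29 to 2.44% of the counts in the SKOV3 groups and 3.93 to 11.2% in SKOV3/DDP. The members' GC content ran from 49.0% in INSR to 64.1% in IGFBP6, with IGFBP4 at 62.5% and IGF2 at 60.4%, beside a median of 49.0% over all genes tested. For tests that hold the untreated SKOV3 libraries, values with the trend on GC content and length removed from every library are therefore set beside the log2 fold changes. Levels, shares and ratios of levels carry no such correction. The comparison of the lines with PAE contrasts none of these libraries, though they are part of the fit of 12 libraries it was read from.

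IGFBP4 lies on the forward strand at chr17:40443450-40457725 (GRCh38), IGFBP6 at chr12:53097667-53102340 on the forward strand, IGFBP3 at chr7:45912245-45921272 on the reverse strand and IGFBP2 at chr2:216632828-216664436 on the forward strand. The windows of 250 bases before the starts of these 4 genes are shown because the genes carry the patterns of the report: IGFBP4 and IGFBP6 had the highest levels per kilobase and moved together, IGFBP3 and IGFBP2 took opposite courses. They run 5′ to 3′ on the gene's strand, from RefSeq on GRCh38.p14, and capitals mark matches to the motifs searched on both strands.
IGFBP4, chr17:40443200-40443449: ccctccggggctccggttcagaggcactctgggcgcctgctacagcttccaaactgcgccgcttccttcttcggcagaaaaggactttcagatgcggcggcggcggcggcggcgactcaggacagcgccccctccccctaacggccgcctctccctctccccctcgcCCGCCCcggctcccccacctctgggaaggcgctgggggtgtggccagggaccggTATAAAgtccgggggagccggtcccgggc
IGFBP6, chr12:53097417-53097666: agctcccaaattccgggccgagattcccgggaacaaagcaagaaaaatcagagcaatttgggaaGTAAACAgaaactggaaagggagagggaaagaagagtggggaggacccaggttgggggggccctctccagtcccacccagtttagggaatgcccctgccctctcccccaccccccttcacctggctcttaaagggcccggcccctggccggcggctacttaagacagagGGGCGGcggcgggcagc
IGFBP3, chr7:45921273-45921522: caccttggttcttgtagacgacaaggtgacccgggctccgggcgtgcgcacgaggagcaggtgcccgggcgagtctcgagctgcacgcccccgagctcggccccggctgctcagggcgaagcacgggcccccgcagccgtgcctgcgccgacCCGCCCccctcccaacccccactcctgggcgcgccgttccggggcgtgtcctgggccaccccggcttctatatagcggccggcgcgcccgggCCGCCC
IGFBP2, chr2:216632578-216632827: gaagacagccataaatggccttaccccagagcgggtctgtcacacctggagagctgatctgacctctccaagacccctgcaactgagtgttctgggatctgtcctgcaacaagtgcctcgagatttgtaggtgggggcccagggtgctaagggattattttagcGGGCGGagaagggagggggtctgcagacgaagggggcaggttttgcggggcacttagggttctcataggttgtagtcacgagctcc
The IGFBP4 window held a TATA box (TATAAA) that began 29 bases before the start and a GC box (GGGCGG, here as CCGCCC) at 83 bases, the IGFBP6 window a forkhead motif (GTAAACA) at 186 bases and a GC box at 17 bases, the IGFBP3 window GC boxes at 98 and 6 bases, and the IGFBP2 window a GC box at 86 bases. Of 35114 windows of all genes, 10.7% held TATAAA, 42.6% GGGCGG, 6.35% the E-box CACGTG and 2.98% GTAAACA. Windows were found for 8 of the 10 members, not for IGFBP7 and IGF2, and the exact letters TATAAA occurred in IGFBP4's window alone among them. Other forms of a TATA box, such as tatata in the IGFBP3 window, were not searched. The E-box was found only in IGF2R (3 matches, beside 6 GC boxes), INSR held 4 GC boxes and IGF1R 2, and the IGFBP5 window held none of the 4 motifs. GC content of the windows shown was 71.6% for IGFBP4, 61.2% for IGFBP6, 76.0% for IGFBP3 and 56.8% for IGFBP2, around a median of 58.0%. IGFBP2 has further listed starts, and the window shown precedes the deposited gene start. Its window before chr2:216633420 had a GC content of 69.2% and a GC box at 49 bases. The window before chr2:216659567 had 56.4% and none of the 4 motifs.

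Measured per kilobase of gene length, the binding protein genes, not the ligand or the receptors, made up most of the members' RNA. In untreated SKOV3 the level was 2726 ± 168 CPM per kilobase for IGFBP4 and 2618 ± 677 for IGFBP6 (SD, n = 3), followed by IGFBP7 at 531 ± 27.5. The levels of IGFBP4 and IGFBP6 overlapped there and in both groups with PAE. Within libraries, the ratio of IGFBP4 to IGFBP6 per kilobase was below 1 in all 3 libraries of SKOV3 with PAE (0.603 to 0.962) and above 1 in all 3 of untreated SKOV3/DDP (1.23 to 1.76). On the same scale IGFBP3 was at 12.9, IGF2R at 12.2, IGFBP2 at 6.98, IGF1R at 3.53, INSR at 0.776, IGFBP5 at 0.271 and IGF2 at 0.0431 CPM per kilobase. In untreated SKOV3/DDP the order changed to IGFBP4 (193), IGFBP6 (132), IGFBP2 (47.8), IGF2R (23.1) and INSR (3.52), with IGF1R at 1.27, IGFBP3 at 0.650, IGF2 at 0.227, IGFBP7 at 0.140 and IGFBP5 at 0.0233 CPM per kilobase.

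**Figure D1:**
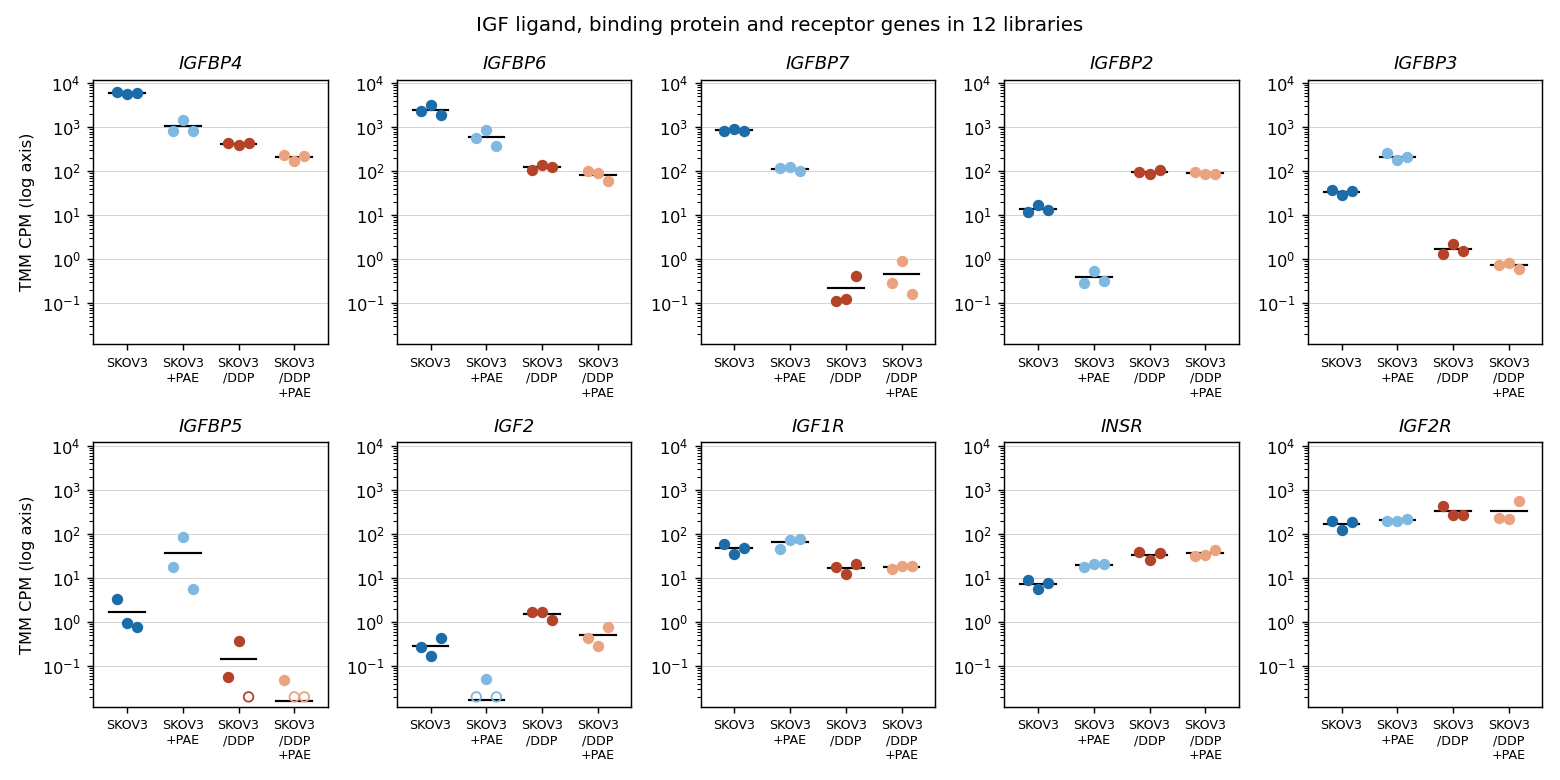
Level of each member in each of the 12 libraries as TMM-normalised CPM on a log axis, by group. Points are libraries, bars are group means and open circles mark libraries with a count of 0; IGFBP4 and IGFBP6 step down from untreated SKOV3 (5708 to 6422 and 1947 to 3191 CPM) to SKOV3/DDP with PAE (174 to 231 and 58.8 to 101 CPM), while IGFBP2 is high in both SKOV3/DDP groups, and the fitted change with PAE in SKOV3 changes sign for IGFBP4 and IGFBP6 once the GC trend is removed.

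IGFBP4, which restrains the ligands, was highest in untreated SKOV3 and lowest in SKOV3/DDP with PAE. Untreated SKOV3 had 6422, 5708 and 5899 CPM, and SKOV3 with PAE 809, 1473 and 843 CPM. Untreated SKOV3/DDP had 450, 393 and 432 CPM, and SKOV3/DDP with PAE 231, 174 and 218 CPM. The 4 groups did not overlap and followed each other in that order, with means of 6010 ± 370, 1042 ± 374, 425 ± 28.9 and 208 ± 30.3 CPM (SD, n = 3). These levels carry no correction for the GC trend. With that trend removed, the fitted change of IGFBP4 with PAE in SKOV3 was 0.55 on the log2 scale (edgeR adjusted p = 0.0502).

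IGFBP6 followed the same order of groups. It had 2300, 3191 and 1947 CPM in untreated SKOV3 and 576, 851 and 376 CPM with PAE. In SKOV3/DDP it had 110, 137 and 128 CPM untreated and 101, 92.1 and 58.8 CPM with PAE. None of the neighbouring groups overlapped, though the last pair did not pass the test given below. The order is again that of uncorrected levels. With the GC trend removed, the fitted change of IGFBP6 with PAE in SKOV3 was upward, at 1.91 on the log2 scale.

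IGFBP7, found in vessel walls and senescent cells, was high only in the SKOV3 groups. It had 824, 897 and 818 CPM untreated and 119, 124 and 100.4 CPM with PAE. In SKOV3/DDP it was near its detection limit, with 2, 2 and 7 counts untreated and 6, 20 and 3 counts with PAE.

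IGFBP2, often raised in ovarian tumours and serum, ran the other way between the lines. Untreated SKOV3 had 11.9, 17.3 and 13.6 CPM and SKOV3 with PAE 0.291, 0.559 and 0.316 CPM. SKOV3/DDP had 98.2, 87.8 and 107 CPM untreated and 97.7, 87.6 and 86.1 CPM with PAE. The 2 SKOV3/DDP groups overlapped and both lay above the 6 SKOV3 libraries.

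IGFBP3, the main carrier of IGFs in serum, was highest in SKOV3 with PAE. It had 37.3, 29.1 and 35.3 CPM in untreated SKOV3 and 257, 178 and 207 CPM with PAE. It had 1.33, 2.27 and 1.53 CPM in untreated SKOV3/DDP and 0.736, 0.846 and 0.605 CPM with PAE. No groups overlapped, and the direction with PAE was up in SKOV3 and down in SKOV3/DDP.

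IGFBP5, which neighbours IGFBP2 tail to tail at chr2:216672105-216695549 with 7668 bases between them, had its groups in the order of IGFBP3 and not of its neighbour. It had 38, 11 and 9 counts in untreated SKOV3 and 306, 1689 and 109 counts with PAE. In SKOV3/DDP it had 1, 6 and 0 counts untreated and 1, 0 and 0 counts with PAE. The SKOV3 libraries with PAE differed widely among themselves (17.8, 85.8 and 5.74 CPM), and replicate 2 held most of their counts.

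The ligand IGF2 was scarce in every group. Its counts were 3, 2 and 5 in untreated SKOV3, 0, 1 and 0 with PAE, 30, 27 and 18 in untreated SKOV3/DDP and 9, 6 and 14 in SKOV3/DDP with PAE. The gene at chr11:2129112-2149603 overlaps the antisense RNA IGF2-AS, which had 2, 2, 66 and 29 counts over the same groups, and the strand of counting is not given in the sources used here. Reads of the pair cannot then be told apart, and IGF2 is uncertain.

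The receptors varied less than the binding proteins. IGF1R had 58.9, 34.3 and 48.9 CPM in untreated SKOV3, 46.5, 71.5 and 75.3 with PAE, 18.2, 12.3 and 20.4 in untreated SKOV3/DDP and 16.3, 18.7 and 19.1 with PAE. INSR had 8.87, 5.54 and 7.63 CPM in untreated SKOV3, 18.2, 20.4 and 20.5 with PAE, 38.1, 25.4 and 36.4 in untreated SKOV3/DDP and 31.3, 33.8 and 44.3 with PAE. For both genes the SKOV3/DDP groups overlapped each other and not the SKOV3 groups, with IGF1R lower and INSR higher in SKOV3/DDP. IGF2R was between 125 and 572 CPM over all 12 libraries, and its untreated SKOV3 libraries (201, 125 and 190 CPM) overlapped those with PAE (194, 199 and 217 CPM). SKOV3/DDP had 436, 263 and 276 CPM of IGF2R untreated and 228, 222 and 572 CPM with PAE, so that 1 library of each group stood above the rest.

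The make-up of the binding protein RNA was compared within each library, which does not depend on the scaling between libraries. IGFBP4 held 46.6% ± 6.16 of the summed IGFBP counts per kilobase in untreated SKOV3, 37.3% ± 4.92 with PAE, 51.7% ± 3.44 in untreated SKOV3/DDP and 41.6% ± 6.49 with PAE (SD, n = 3). The share in SKOV3/DDP was 5.02 percentage points above that in SKOV3 when untreated, with p = 0.4 (2-sided exact permutation test), and 4.24 points above it with PAE (exact p = 0.5). PAE libraries were lower by -9.31 points in SKOV3 (exact p = 0.2) and by -10.1 points in SKOV3/DDP (exact p = 0.1). The smallest p that 3 libraries against 3 allow is 0.1, so no share could pass 0.05. The SKOV3/DDP pair reached that smallest value, with 55.4, 48.6 and 51.0% untreated and 40.3, 35.8 and 48.6% with PAE, so that the nearest libraries of the 2 groups were almost equal.

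IGFBP4 and IGFBP6 together held 90.6% ± 0.653 of the pool in untreated SKOV3, 86.7% ± 3.52 with PAE, 87.0% ± 0.948 in untreated SKOV3/DDP and 80.2% ± 1.17 with PAE. The remainder was a different gene in each line. In untreated SKOV3 it was IGFBP7 (9.05%), in SKOV3 with PAE it was IGFBP3 (6.99%) and IGFBP7 (5.94%), and in SKOV3/DDP it was IGFBP2 (12.8% untreated and 19.5% with PAE). The ratio of IGFBP4 to IGFBP6 per kilobase was 1.09 ± 0.283, 0.769 ± 0.181, 1.48 ± 0.267 and 1.13 ± 0.412 in the order of the groups above, with overlapping libraries in all but SKOV3 with PAE against untreated SKOV3/DDP. The summed level over the same groups was 5895 ± 638, 1267 ± 414, 373 ± 9.51 and 228 ± 29.3 CPM per kilobase. The sum of these 6 genes was not tested.

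**Figure D2:**
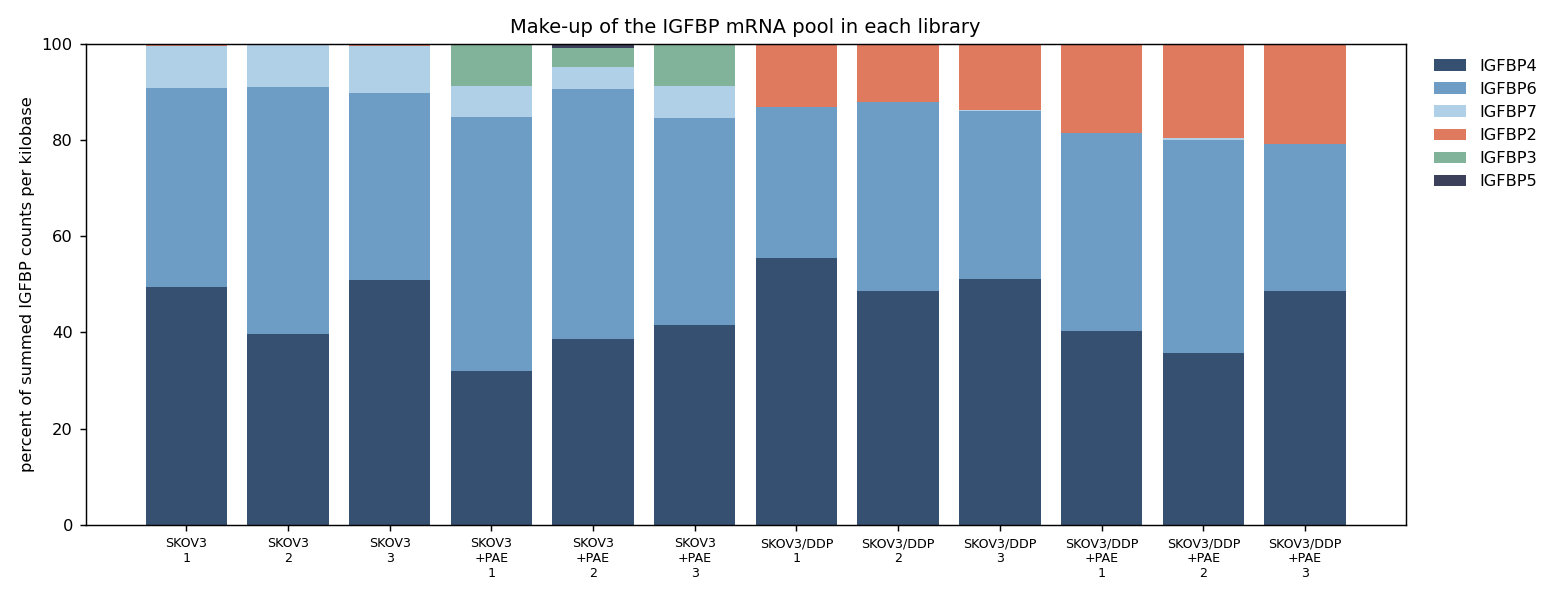
Share of each IGFBP gene in the summed IGFBP counts per kilobase, in percent, as 1 stacked bar per library. IGFBP4 and IGFBP6 fill 80.2 to 90.6% on average in each group, and the rest is IGFBP7 in untreated SKOV3, IGFBP3 and IGFBP7 in SKOV3 with PAE, and IGFBP2 in SKOV3/DDP.

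The first comparison asks how the untreated lines differ. IGFBP4, IGFBP6, IGFBP7, IGFBP3 and IGF1R were lower in SKOV3/DDP, and IGFBP2, IGF2, INSR and IGF2R were higher. All 9 members with enough counts passed edgeR's quasi-likelihood test at a Benjamini-Hochberg adjusted p under 0.05, 4 higher and 5 lower, while IGFBP5 (58 against 7 counts) was too low to be tested. Of all 15323 genes tested, 84.7% passed, 46.1% higher and 38.5% lower, so that the count of members is close to the background. The members' median log2 fold change was -1.54 and their median size 2.71, against 0.41 and 2.33 over all genes. Under the study's criteria, an absolute log2 fold change over 2 at an unadjusted p under 0.05, 7 members and 57.4% of all genes passed. The intestinal markers moved with this comparison, from at most 0.887 CPM in SKOV3 to 532 CPM or more in SKOV3/DDP, and their part in it was not tested.

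IGFBP7 differed most, at -11.90 ± 0.39 on the log2 scale (SE, edgeR adjusted p = 6.75e-07), from 29473 counts in SKOV3 to 11 in SKOV3/DDP. IGFBP6 was 20.8-fold lower (-4.38 ± 0.24, adjusted p = 1.35e-06), IGFBP3 20.6-fold lower (-4.37 ± 0.29, 2.76e-06) and IGFBP4 14.7-fold lower (-3.88 ± 0.15, 6.75e-07). With the GC trend removed these became -10.36 for IGFBP7, -0.71 for IGFBP6, -4.03 for IGFBP3 and -1.13 for IGFBP4, all still past the test. The 2 genes of highest GC content thus kept their direction and lost most of their size, and IGFBP7 and IGFBP3 did not.

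IGFBP2 was 6.55-fold higher in SKOV3/DDP (2.71 ± 0.22, edgeR adjusted p = 6.82e-06), and 5.06 on the log2 scale with the trend removed. INSR was 4.35-fold higher (2.12 ± 0.27, adjusted p = 9.52e-05) and IGF1R 2.90-fold lower (-1.54 ± 0.28, 0.000766), and both kept direction and call without the trend (1.46 and -1.59). IGF2 was higher by 2.30 ± 0.47 on the log2 scale (0.00174), on 10 against 75 counts, and by 4.01 with the trend removed. IGF2R, which clears IGF2, was 1.81-fold higher (0.86 ± 0.25, 0.0118), and this call was lost with the trend removed (0.15, adjusted p = 0.542).

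The lines with PAE were compared in a fit of all 12 libraries. The members again differed widely, with IGFBP2, IGF2 and INSR higher in SKOV3/DDP and IGFBP3, IGFBP4, IGFBP5, IGFBP6, IGFBP7 and IGF1R lower. That is 9 of 10 members past the test, 3 higher and 6 lower, where 54.5% of 17133 genes passed, 27.5% higher and 27.1% lower. The members' median size was 3.57 on the log2 scale against 0.93 over all genes, and 7 members against 24.6% of all genes met the study's criteria. The intestinal markers again differed, at most 0.465 CPM against 163 CPM or more, and their part was not tested.

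Here IGFBP3 was 290-fold lower in SKOV3/DDP (-8.18 ± 0.31, edgeR adjusted p = 1.56e-10) and IGFBP2 227-fold higher (7.82 ± 0.31, 1.71e-10). IGFBP7 was 236-fold lower (-7.88 ± 0.46, 3.69e-09). IGFBP6 and IGFBP4 differed less, at -2.84 ± 0.32 (2.72e-06) and -2.33 ± 0.25 (1.72e-06). IGF1R was 3.57-fold lower (-1.84 ± 0.27, 3.87e-05) and INSR 1.85-fold higher (0.89 ± 0.24, 0.00555). With the GC trend removed each of these log2 values moved by little, to -8.07, 8.01, -7.72, -2.72, -2.20, -1.93 and 0.79 in the order given, and kept its call.

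IGFBP5 and IGF2 rested on 1 count in the lower group, where a fitted fold depends on the added prior count. IGFBP5 passed the low-count filter only through SKOV3 with PAE, and IGF2 only through SKOV3/DDP. Both are counted among the members past the test. With PAE, IGFBP5 had 2104 counts in SKOV3 and 1 in SKOV3/DDP, a ratio of 2252 (95% exact counting interval 404 to 88999; edgeR adjusted p = 1.38e-05). IGF2 had 1 and 29 counts, a ratio of 27.1 toward SKOV3/DDP (interval 4.49 to 1106; adjusted p = 0.000930). IGF2R was at 0.74 ± 0.34 on the log2 scale and did not pass (edgeR adjusted p = 0.0737). Its value rested on the third SKOV3/DDP library with PAE (572 CPM), without which it was 0.15 (adjusted p = 0.661). It passed without the first or the second of these libraries (0.96 and 0.97) and with no filter on low counts (0.73, adjusted p = 0.0166).

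**Figure D3:**
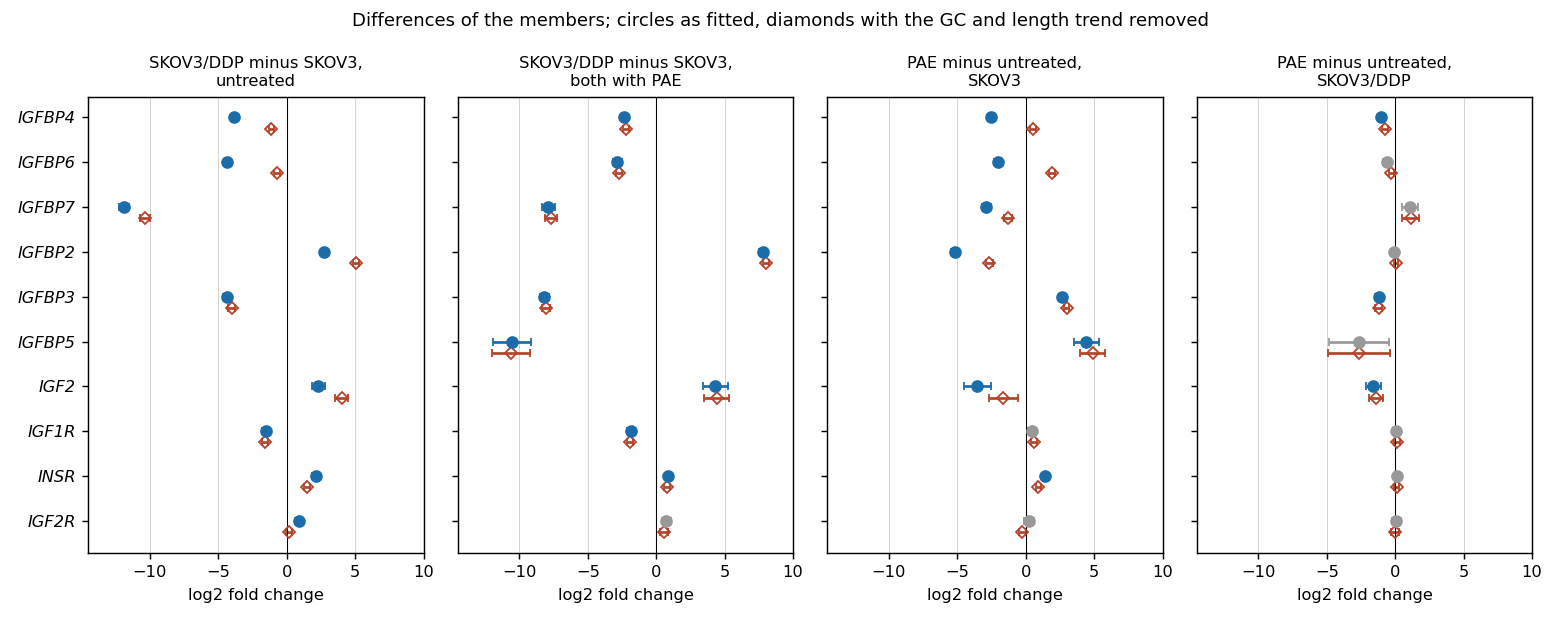
Log2 fold change of each member in 4 comparisons, with the standard error. Filled circles are the edgeR values, blue where the adjusted p was under 0.05 and grey where not, and open diamonds the values with the trend on GC content and length removed; IGFBP4 goes from -2.53 to 0.55 and IGFBP6 from -2.04 to 1.91 for PAE in SKOV3, while the circles and diamonds of the lines with PAE lie together.

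With PAE, SKOV3 libraries had less IGFBP2, IGFBP7, IGFBP4, IGFBP6 and IGF2 and more IGFBP3, IGFBP5 and INSR, but with the GC trend removed IGFBP6 was higher and IGFBP4 had a positive value that did not pass (adjusted p = 0.0502). In the edgeR fit 8 of 10 members passed, 3 higher and 5 lower, where 75.3% of 17133 genes passed, 42.6% higher and 32.7% lower. In a fit of the SKOV3 libraries alone 7 passed, 3 higher and 4 lower, and IGF2 had too few counts to be tested. The split of the members became 5 higher and 2 lower with the trend removed, and 5 higher and 5 lower with library totals in place of TMM factors. The members' median log2 fold change was -0.90 with a median size of 2.59, against 0.48 and 2.07 over all genes, and 7 members against 50.2% of all genes met the study's criteria.

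IGFBP2 fell most, 35.7-fold (-5.16 ± 0.29, edgeR adjusted p = 1.11e-08), and still by -2.65 on the log2 scale with the trend removed. IGFBP7 fell 7.39-fold (-2.88 ± 0.34, 1.45e-06; -1.31 without the trend). IGFBP3 rose 6.32-fold (2.66 ± 0.23, 7.88e-08; 2.98 without the trend). These 3 kept their direction and call under every alternative tried.

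IGFBP4 was lower by -2.53 ± 0.25 on the log2 scale (edgeR adjusted p = 2.51e-07) and IGFBP6 by -2.04 ± 0.31 (1.94e-05). With the trend removed IGFBP4 came to 0.55 ± 0.22 (adjusted p = 0.0502) and IGFBP6 to 1.91 ± 0.20 (6e-06). The direction of these 2 genes with PAE in SKOV3 thus depended on that step, although the PAE and untreated libraries did not overlap in CPM.

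IGFBP5 rose by 4.43 ± 0.89 (0.000328 by edgeR), from 58 to 2104 counts, and by 2.80 without the second SKOV3 library with PAE. IGFBP5 passed the low-count filter only through SKOV3 with PAE, where it was highest, so its call rests on that group. IGF2 went from 10 counts to 1, a ratio of 16.1 (95% exact counting interval 2.28 to 697, edgeR adjusted p = 0.00487), a call lost with the trend removed (adjusted p = 0.217). IGF2 entered the fit of 12 libraries through SKOV3/DDP, and was too low to be tested in the SKOV3 libraries alone. Among the receptors, INSR rose 2.68-fold (1.42 ± 0.25, 9.54e-05; 0.93 without the trend). IGF1R (0.44 ± 0.26, 0.132) and IGF2R (0.24 ± 0.33, 0.524) did not pass, though IGF1R passed with the trend removed (0.63, 0.0261) and both passed with library totals (1.33 and 1.12).

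In SKOV3/DDP fewer members passed for PAE than in SKOV3, as was so of all genes. IGFBP3, IGFBP4 and IGF2 were lower, no member was higher, and 7 of 10 did not pass. Over all genes 26.4% passed, 11.8% higher and 14.7% lower, and the members' median size was 0.80 against 0.58 on the log2 scale. No member met the study's criteria, which 7.11% of all genes did.

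IGFBP3 fell 2.31-fold (-1.21 ± 0.29, edgeR adjusted p = 0.00802) and IGFBP4 2.05-fold (-1.03 ± 0.24, 0.00623). Both kept the call under every alternative, IGFBP4 at -0.76 (adjusted p = 0.0205) with the GC trend removed. IGF2 was at -1.60 ± 0.55 (adjusted p = 0.0436), on 75 against 29 counts, and lost its call in 15 of 18 alternatives. IGFBP6, at -0.57 ± 0.30 (adjusted p = 0.172), did not pass. IGFBP7 (1.08 ± 0.60, 0.204) had 11 and 29 counts, and IGFBP5 had 7 and 1, a ratio of 8.46 (95% exact counting interval 1.09 to 381; edgeR adjusted p = 0.404). IGFBP2 (-0.11 ± 0.21), INSR (0.13 ± 0.24), IGF1R (0.09 ± 0.26) and IGF2R (0.07 ± 0.33) lay within 1 SE of 0, with adjusted p-values of 0.745, 0.732, 0.854 and 0.923.

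The PAE effect was then compared between the lines by the interaction term, SKOV3/DDP minus SKOV3. It passed for 7 of 10 members, 4 higher and 3 lower, where 62.9% of all genes passed, 25.5% higher and 37.4% lower, and 4 members against 45.5% of all genes met the study's criteria. IGFBP2 gave 5.05 ± 0.36 (edgeR adjusted p = 1.42e-07) and IGFBP7 3.96 ± 0.68 (0.000113), where both fell in SKOV3 and neither passed in SKOV3/DDP. With the GC trend removed these were 2.72 and 2.44, both still past the test. IGFBP3 gave -3.87 ± 0.37 (6.65e-07), rising in SKOV3 and falling in SKOV3/DDP (-4.19 with the trend removed). INSR gave -1.29 ± 0.34 (0.00400), and -0.83 with the trend removed, and IGFBP5 -7.06 ± 2.4 (0.0180) on few counts in SKOV3/DDP. IGFBP5 is counted here although it passed the low-count filter only through SKOV3 with PAE. IGFBP2, IGFBP3, IGFBP7 and INSR kept direction and call in all alternatives run, at these smaller or larger sizes.

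IGFBP4 gave 1.49 ± 0.34 (edgeR adjusted p = 0.00117) and IGFBP6 1.47 ± 0.42 (0.00632), but with the GC trend removed both turned over, to -1.30 ± 0.32 and -2.19 ± 0.28. With library totals both lost the call (0.77 each, edgeR adjusted p = 0.0638 and 0.119). IGFBP5 lost its call without the second untreated SKOV3/DDP library (-5.06, adjusted p = 0.375). IGF2, IGF1R and IGF2R did not pass (adjusted p = 0.144, 0.424 and 0.787). This comparison shares its libraries with those of PAE in each line.

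The receptor balance separated the lines. Per kilobase, the ratio of IGF1R to INSR was 4.53 ± 0.156 in untreated SKOV3, 2.29 ± 0.426 in SKOV3 with PAE, 0.358 ± 0.0332 in untreated SKOV3/DDP and 0.354 ± 0.0440 with PAE (SD, n = 3). The 2 genes have similar GC content, 51.7% and 49.0%, but differ in length, 13403 and 9471 bases. For PAE in SKOV3, IGF1R and INSR were at 0.44 and 1.42 on the log2 scale. With the trend on GC content and length removed they were at 0.63 and 0.93, nearer each other. The fall of the ratio with PAE in SKOV3 thus depended in part on that step. Libraries of the SKOV3 groups lay between 1.81 and 4.69 and those of SKOV3/DDP between 0.305 and 0.397, so the lines did not overlap, while the SKOV3/DDP groups did.

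Other genes of the pathway, 33 in a list that holds no member, were read from the same fits. Between the untreated lines 23 could be tested, of which 9 were higher and 12 lower in SKOV3/DDP, and between the lines with PAE 25 could be tested, 7 higher and 8 lower. With PAE, 10 were higher and 7 lower in SKOV3, and 5 higher and 4 lower in SKOV3/DDP. The shares of all genes passing are those given above (84.7, 54.5, 75.3 and 26.4%). With the GC trend removed, 9 were higher and 10 lower between the untreated lines, with 4 changes of sign, and 12 were higher and 4 lower with PAE in SKOV3, with 9 changes of sign. Between the lines with PAE the counts were then 6 and 10, and with PAE in SKOV3/DDP 4 and 5. IGF1, INS, IGFBP1, INSRR, IRS4, PAPPA and PAPPA2 were too low to be tested in any fit.

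Of 6 genes that govern IGFBP cleavage 4 could be tested, and all 4 were lower in SKOV3/DDP in both line comparisons, but HTRA1 turned to higher between the untreated lines with the GC trend removed (0.57 ± 0.22, edgeR adjusted p = 0.0442). Over all genes 38.5% were lower between the untreated lines and 27.1% with PAE. STC1, STC2 and ADAM12 stayed lower untreated with the trend removed (-8.83, -12.68 and -7.36). STC2, a secreted inhibitor of PAPPA, had means of 251 and 314 CPM in SKOV3 without and with PAE and 0.0204 and 0.434 CPM in SKOV3/DDP. Untreated, it had 8741 counts in SKOV3 and 1 in SKOV3/DDP, a ratio of 12434 (95% exact counting interval 2231 to 491166; edgeR adjusted p = 6.75e-07), and with PAE it differed by -9.47 ± 0.35 on the log2 scale (1.51e-10). STC1, its paralogue, had means of 49.4, 253, 0.303 and 0.10 CPM over the 4 groups in the order of the plots, and rose with PAE in SKOV3 (2.36 ± 0.50, 0.000519), a call lost with the trend removed (0.85, adjusted p = 0.143). HTRA1, a serine protease that cuts IGFBPs, was at -1.88 ± 0.19 (2.25e-05) untreated before that correction and -2.11 ± 0.25 (5.89e-06) with PAE, and ADAM12, a metalloprotease of IGFBP3 and IGFBP5, at -6.09 ± 0.49 (7.54e-06) and -6.09 ± 0.44 (2.85e-08). PAPPA itself stayed at or below 0.28 CPM on average. IGFBPL1, a related secreted protein, was at 10.3 and 6.90 CPM in the SKOV3 groups and had 1 count in each SKOV3/DDP group, which gives ratios of 508 untreated (95% exact counting interval 90.6 to 20113) and 414 with PAE (73.9 to 16404).

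Adaptors below the receptors changed one by one. IRS1 was lower in SKOV3/DDP untreated (-1.97 ± 0.41, edgeR adjusted p = 0.00186) and fell further with PAE there (-4.53 ± 0.61, 0.000210), from 164 to 8 counts, but not in SKOV3 (0.58 ± 0.42, 0.222); the interaction passed at -5.11 ± 0.75 (2.80e-05). With the trend removed these values were -2.17, -4.54, 0.56 and -5.11, with the same calls. IRS2 rose with PAE in both lines, by 1.31 ± 0.36 in SKOV3 (0.00423) and 1.24 ± 0.36 in SKOV3/DDP (0.0197), and the 2 effects did not pass a test of their difference (-0.07 ± 0.50, 0.948), but did with the trend removed (-1.82, adjusted p = 0.0127, with 3.23 in SKOV3). GRB10, an adaptor that restrains INSR and IGF1R, was higher in SKOV3/DDP both untreated (2.43 ± 0.43, 0.000705; 2.24 with the trend removed) and with PAE (2.68 ± 0.38, 2.70e-05). SHC1 fell with PAE in SKOV3/DDP (-1.44 ± 0.24, 0.000771), and in SKOV3 its value of -1.65 ± 0.24 (1.37e-05) turned to 0.14 (adjusted p = 0.591) with the trend removed.

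In the PI3K and AKT group, the comparisons with untreated SKOV3 and those without it gave different counts. PIK3CA, PIK3CB and PIK3R1 were higher and AKT1, AKT2 and PIK3R2 lower both in untreated SKOV3/DDP against SKOV3 and with PAE in SKOV3, which share the untreated SKOV3 libraries. AKT1, for example, was at -3.25 ± 0.24 and -3.11 ± 0.27 (edgeR adjusted p = 4.96e-06 and 8.32e-08) and PIK3CA at 3.90 ± 0.33 and 4.50 ± 0.32 (8.62e-06 and 1.73e-08). Between the lines with PAE, AKT1 was at -0.55 ± 0.25 (0.0813) and PIK3CA at 0.08 ± 0.26 (0.806), neither past the test, and of these 6 genes PIK3R1 (1.66 ± 0.32, 0.000431) and AKT2 (-0.68 ± 0.22, 0.0179) passed. Across all genes the log2 fold change went with GC content in the first 2 comparisons (Spearman -0.609 and -0.785) and not between the lines with PAE (-0.00846). With the trend removed, AKT1 came to -1.23 and -0.63 and PIK3CA to 0.91 and 1.44 in those first 2 comparisons, still past the test, while PIK3R2 lost the call in both (-0.16 and -0.02) and PIK3CB between the untreated lines (0.39, adjusted p = 0.169). Between the lines with PAE, AKT1 (-0.62, edgeR adjusted p = 0.0387) and PIK3CB (-0.65, 0.0210) then passed as well.

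Genes tied to IGF2 RNA also split the lines. H19, the imprinted neighbour of IGF2, had means of 1.86 and 1.79 CPM in the SKOV3 groups, 202 CPM in untreated SKOV3/DDP and 63.1 CPM with PAE. It was higher in SKOV3/DDP by 6.70 ± 0.42 untreated (edgeR adjusted p = 2.26e-06) and fell there with PAE (-1.67 ± 0.46, 0.0156). The value between the untreated lines was 8.75 with the trend removed. The IGF2 mRNA-binding proteins differed by gene: IGF2BP1 was lower in SKOV3/DDP (-7.53 ± 0.54, 3.87e-06), and IGF2BP2 (4.94 ± 0.32, 2.61e-06) and IGF2BP3 (6.16 ± 0.46, 5.04e-06) were higher, at -8.00, 4.36 and 3.77 with the trend removed. IGF2BP3 rose with PAE in SKOV3 (3.44 ± 0.40, 1.48e-06; 1.02 with the trend removed) and fell in SKOV3/DDP (-1.86 ± 0.34, 0.00140).

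**Figure D4:**
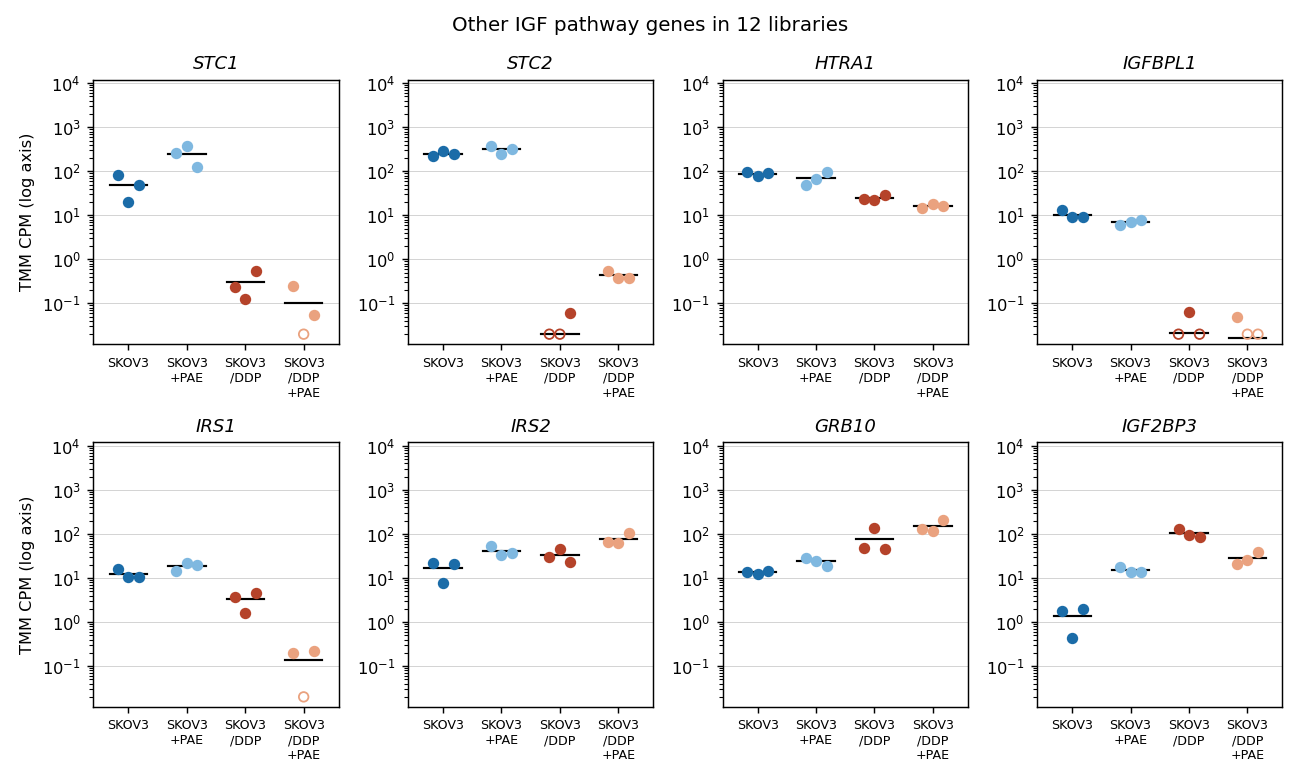
TMM-normalised CPM on a log axis of 8 pathway genes outside the members, in each of the 12 libraries by group. Points are libraries, bars are group means and open circles mark a count of 0; STC1, STC2 and IGFBPL1 are near 0 in SKOV3/DDP, IRS1 is lowest in SKOV3/DDP with PAE (8 counts), and GRB10 and IGF2BP3 are higher in SKOV3/DDP.

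Over the 12 libraries, the log2 CPM of IGFBP4 went with that of IGFBP6 (Pearson r = 0.972) and IGFBP7 (0.897), less with IGF1R (0.691), IGFBP3 (0.667) and IGFBP5 (0.547), and inversely with INSR (-0.944), IGF2R (-0.634), IGFBP2 (-0.400) and IGF2 (-0.322). These values describe 12 libraries in 4 groups and share the GC trend. Among 9948 genes with a mean of at least 10 CPM, those most like IGFBP4 were TNIP1, NTHL1, POLD1, TAGLN2 and ARFRP1, with r from 0.995 to 0.996. Their GC content was 57.0 to 65.0%, around that of IGFBP4 (62.5%) and above the median of all genes tested (49.0%).

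Other genes overlap the members in the deposited coordinates. POLR2B, on the strand opposite to IGFBP7 (chr4:57030773-57110385), had 362, 4813, 6516 and 9423 counts over the 4 groups in the order above, while IGFBP7 had 29473, 6406, 11 and 29, so the SKOV3/DDP libraries held few IGFBP7 counts beside many of POLR2B. IRAIN, antisense to IGF1R (chr15:98648539-98964530), reached at most 21 counts in a library, and CHP1P2, within IGF2R (chr6:159969082-160111504), 1.81% of the level of IGF2R in CPM. INSR lies at chr19:7112257-7294414 on the reverse strand with no overlapping gene in the files.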

How the data were processed

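The authors deposited raw counts per gene for each of the 12 libraries, as whole numbers without normalization, with GRCh38 coordinates and NCBI Gene IDs. The submitters' processing notes name HISAT2 2.0.5, StringTie 1.3.3b, DESeq2 and edgeR without their roles. The counting program and the strand of counting are not given in the sources used here. Loci without a gene name (869, with 0.126 to 0.678% of a library's counts) were left out.

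Counts were analysed in R 4.3.3 with edgeR 4.0.16: filterByExpr, TMM factors and quasi-likelihood tests, adjusted over all genes by Benjamini-Hochberg, with calls at 0.05. For the untreated lines a fit of 6 libraries was used (15323 genes), and PAE in each line, the difference of its effect (interaction) and the lines with PAE in 1 fit of 12 libraries and 4 groups (17133 genes). A standard error is the size of the fitted log2 value over the root of its F statistic. CPM of the report are TMM-normalised over the 12 libraries, and CPM per kilobase divides them by the gene length deposited with the counts. GC content is that of the longest GENCODE 29 transcript of a gene (for 88.1% of the genes of the larger fit). A share of the IGFBP pool was compared by a 2-sided exact permutation test. Ratios on few counts have 95% exact counting intervals, and a count of 0 allows 3 counts. Likeness to IGFBP4 is Pearson's r of log2 CPM with a prior count of 1.

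The alternatives were DESeq2 1.42.0, scaling by library totals, no filter on low counts, the replicate number as a block, removal of each library's trend on GC content and length (splines with 5 degrees of freedom), 12 libraries in 1 fit for the untreated lines, each line alone for PAE, each library left out in turn and, for shares, counts not divided by length and IGFBP7 left out. Removing the trend for the pathway list too was chosen after seeing the data. The fits were also run on simulated counts with a small set of changed genes and no GC trend. Such counts differ from these data in both respects and cannot show how the fits behave under that trend. The members, the list of 33 pathway genes and the marker lists were chosen with earlier results of these data known. Genes named are the members, genes of that list by role, the 5 genes most like IGFBP4 and genes overlapping a member. Promoter windows came from a RefSeq table, and no sequence was available for 2 members. Some genes of the pathway and marker lists are not reported here by name.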

Additional observations from a re-analysis of the deposited data

Results flagged for a closer look

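For 7 members the effect of PAE differed between the lines by the interaction term of the edgeR fit (SKOV3/DDP minus SKOV3, log2 scale). The differences were 5.05 for IGFBP2, 3.96 for IGFBP7, 1.49 for IGFBP4, 1.47 for IGFBP6, -1.29 for INSR, -3.87 for IGFBP3 and -7.06 for IGFBP5. Of all genes, 62.9% passed the same test. IGFBP5 entered the fit only through SKOV3 with PAE, the group where it was highest. With the trend on GC content removed, the values for IGFBP4 and IGFBP6 changed sign, to -1.30 and -2.19. Groups of 3 libraries are too small to be searched for an outlying library.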

How the results depend on the processing

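Of 805 values of the members under alternatives, 756 kept their direction and call, 20 lost the call, 8 gained it and 21 changed sign. Most of these alternatives left out 1 library, in some comparisons a library of a group not compared. The total thus mixes unlike checks and is no measure of how far a single step matters. Sign changes with the GC trend removed were IGFBP4 0.55, IGFBP6 1.91 and IGF2R -0.24 for PAE in SKOV3, IGFBP2 0.0695 and IGF2R -0.0021 for PAE in SKOV3/DDP, and IGFBP4 -1.30, IGFBP6 -2.19 and IGF2R 0.24 for the difference. With DESeq2, IGF2R turned to -0.000173 for PAE in SKOV3 and 0.0772 for the difference, and with library totals IGFBP2 turned to 0.0559 for PAE in SKOV3/DDP. Leaving out 1 library moved values that had not passed across 0: for PAE in SKOV3/DDP, IGF1R ranged from -0.10 to 0.27, IGF2R from -0.49 to 0.37 and INSR from -0.0312 to 0.27, and for the difference IGF2R ranged from -0.74 to 0.12. The cause was not tested.

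Without the first untreated SKOV3 library IGFBP5 went to 5.41 for PAE in SKOV3 and -8.05 for the difference, and without the first SKOV3/DDP library with PAE to -8.70 for the difference and -12.23 between the lines with PAE. Without the second SKOV3 library with PAE, IGFBP5 went from 4.43 to 2.80 and IGF2 from -3.54 to -5.28 for PAE in SKOV3, and between the lines with PAE IGFBP5 went from -10.56 to -8.93 and IGF2 from 4.31 to 6.04. IGFBP5 then came to -5.40 for the difference. IGFBP7 moved from 3.96 to 4.83 for the difference and from -11.90 to -12.67 between the untreated lines without the third untreated SKOV3/DDP library, and to 2.98 for the difference and -8.90 between the lines with PAE without the second SKOV3/DDP library with PAE. Leaving out 1 library gave 9 to 10 members past the test between the untreated lines, 8 to 9 for PAE in SKOV3, 2 to 3 for PAE in SKOV3/DDP, 6 to 7 for the difference and 9 to 10 between the lines with PAE.

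IGFBP4's share without division by length was 64.2% in untreated SKOV3, 51.6% with PAE, 65.4% in untreated SKOV3/DDP and 54.1% with PAE, and leaving out 1 library gave 44.6 to 50.2%, 35.3 to 40.1%, 49.8 to 53.2% and 38.1 to 44.5%. With library totals the median over all genes, on the log2 scale, was 1.16 between the untreated lines (0.41 with TMM), 1.36 for PAE in SKOV3 (0.48), 0.16 for PAE in SKOV3/DDP (0 with TMM) and -1.30 for the difference (-0.62). Genes called higher and lower then numbered 9058 and 3834 for PAE in SKOV3 (7292 and 5603 with TMM), 2889 and 1913 for PAE in SKOV3/DDP (2014 and 2512) and 3088 and 7808 for the difference (4374 and 6404). With the GC trend removed they numbered 6327 and 2112 for PAE in SKOV3 and 1908 and 5051 for the difference, 8439 calls in place of 12895 and 6959 in place of 10778. For PAE in SKOV3/DDP, 4526 genes passed in all, and 2815 without the first and 2837 without the third untreated library.

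Same-numbered libraries of different groups correlated between -0.31 and 0.18 over 18 pairs and were the best match in 10 of 36 comparisons. These values gave no sign of pairing, and the labels do not say whether the numbers pair the libraries. With the replicate number as a block, 9, 8, 2, 7 and 9 members passed, and IGF2R turned to -0.0045 for PAE in SKOV3/DDP. Low counts limit IGF2 in all groups, and IGFBP5 and IGFBP7 in SKOV3/DDP.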
